A study of Mus musculus with 12 samples.

Results

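Transcripts of 10 genes of the Notch pathway were followed in cultured E0771 cells, a mouse mammary tumor line formed in C57BL/6 mice: the receptors Notch1, Notch2, Notch3 and Notch4, the ligands Dll1, Dll4, Jag1 and Jag2, and the target genes Hes1 and Hey1. They were chosen by name, to follow their mean level in each group, and all 10 were found among the 24197 genes of the deposited table, which spells them in upper case (NOTCH1, NOTCH2, NOTCH3, NOTCH4, DLL1, DLL4, JAG1, JAG2, HES1 and HEY1). Cells were given 4HC (4-hydroperoxy-cyclophosphamide, a chemically activated form of the DNA-alkylating drug cyclophosphamide) at 4.2 μmol/L for 4 hours, with or without 10 μg/mL of an antibody that blocks the type I interferon receptor subunit IFNAR1, and were collected 68 hours after the wash, at 72 hours. The antibody was added again after the wash, and no group with a control antibody was analysed here. Other cells were given recombinant IFNβ at 27.8 U/mL for 4 hours and collected 2 hours after the wash by the sample labels and the table's heading, although the protocol text of the labels states 68 hours, and control cells, given vehicle by the sample labels and called untreated in the heading of the table, were collected at the 72-hour point. Each of the 4 groups held 3 libraries of polyA RNA from independent cultures of this single line. The table gives the authors' mean FPKM (a count of fragments scaled to transcript length and library size) of each group and no value per library. No spread between cultures can thus be shown, and no difference below was tested. The paper's supplementary list of hormone receptor and related genes prints the means used here for 4HC with antibody under an IFNβ heading. Among them are Notch2 at 8.59 FPKM and Jag1 at 2.23 FPKM. The heading of the deposited table was followed, and every antibody and IFNβ value below rests on it.

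Notch receptors are single-pass membrane proteins that bind Delta-like (Dll) or Jagged (Jag) ligands on a neighboring cell. Binding lets an ADAM protease and then γ-secretase cut the receptor, and the freed intracellular part enters the nucleus, joins the DNA-binding protein RBPJ and Mastermind coactivators, and switches on repressor genes of the HES and HEY families. In the mammary gland this pathway takes part in luminal cell fate decisions, and in macrophages and endothelium its ligands respond to inflammatory signals.

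Dll1 was the member that stood apart, and its 5′ flanking sequence is given here together with that of Jag1, the ligand with the highest level, so that the bases upstream of both starts can be compared. RefSeq gives Dll1 a pair of start sites on chromosome 17. The sequences are from RefSeq on build GRCm38.p6, read 5′ to 3′ on the strand of the gene, and stop where an exon annotated in GENCODE begins. Capitals mark the single match to the AP-1 pattern searched, TGANTCA, a loose form that accepts any base in the middle.
Dll1, upstream start, chr17:15376933-15377182, minus strand: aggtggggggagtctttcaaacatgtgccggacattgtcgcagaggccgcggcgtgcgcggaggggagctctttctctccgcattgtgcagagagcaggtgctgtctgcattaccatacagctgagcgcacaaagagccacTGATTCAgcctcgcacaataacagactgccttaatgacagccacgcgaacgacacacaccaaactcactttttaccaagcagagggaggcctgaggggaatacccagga
Dll1, downstream start, chr17:15375977-15376073, minus strand: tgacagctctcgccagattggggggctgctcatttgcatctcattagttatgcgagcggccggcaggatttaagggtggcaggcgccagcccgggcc
Jag1, chr2:137116645-137116770, minus strand: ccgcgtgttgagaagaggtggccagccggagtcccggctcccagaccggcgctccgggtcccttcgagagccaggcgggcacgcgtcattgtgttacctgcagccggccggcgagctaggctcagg

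These windows and those of the other members were searched on both strands for 6 motifs over the 250 bases before each start: the RBPJ core (TGGGAA), the interferon-stimulated response element (GAAA, any 2 bases, GAAA), the GAS element bound by STAT dimers (TTCNNNGAA), the NF-kB consensus, AP-1 (TGANTCA) and an E-box (CACGTG). RefSeq windows were found for 8 of the 10 members, 9 windows in all. Some of these windows run into annotated exons. Only 126 of the 250 bases of Jag1, 97 of the downstream start of Dll1 and 0 of Jag2 lie before the first exon base. Neither the interferon-stimulated response element nor GAS matched in any of the 9, and these motifs occur in 2.98% and 7.02% of all 32851 promoter windows of this length. The RBPJ core, found in 21.6% of all windows, and the E-box, found in 6.02%, were also without a match. The match of Dll1 to the AP-1 pattern, TGATTCA with T as the middle base, lies at positions -109 to -103 from the upstream start. With any middle base accepted, 6.75% of all windows hold such a match. The NF-kB consensus, present in 7.25% of all windows, matched before the downstream start of Dll1 (positions -81 to -72, in bases annotated as exon and not printed) and in the windows of Notch2, Notch4 and Dll4. A match is a run of letters and not a measured binding site, and a lack of one refers to these windows alone.

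The expression levels of the members fell into a readily detected and a barely detected set. Notch1, Notch2, Jag1 and Hes1 were above 1 FPKM in all 4 groups, and Dll1 was above 1 FPKM with 4HC, given alone or with antibody. The other 5 members, Notch3, Notch4, Dll4, Jag2 and Hey1, stayed below 0.5 FPKM in every group. In control cells the order from high to low was Notch2, Hes1, Notch1, Jag1, Jag2, Dll1, Notch4, Dll4, Notch3 and Hey1. In 4HC-treated cells Dll1 stood directly below Jag1 and above Notch4 and Jag2, with the first 4 places as in control cells. Without values per culture, neighbors in this order such as Notch2 and Hes1 cannot be told apart.

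**Figure D1:**
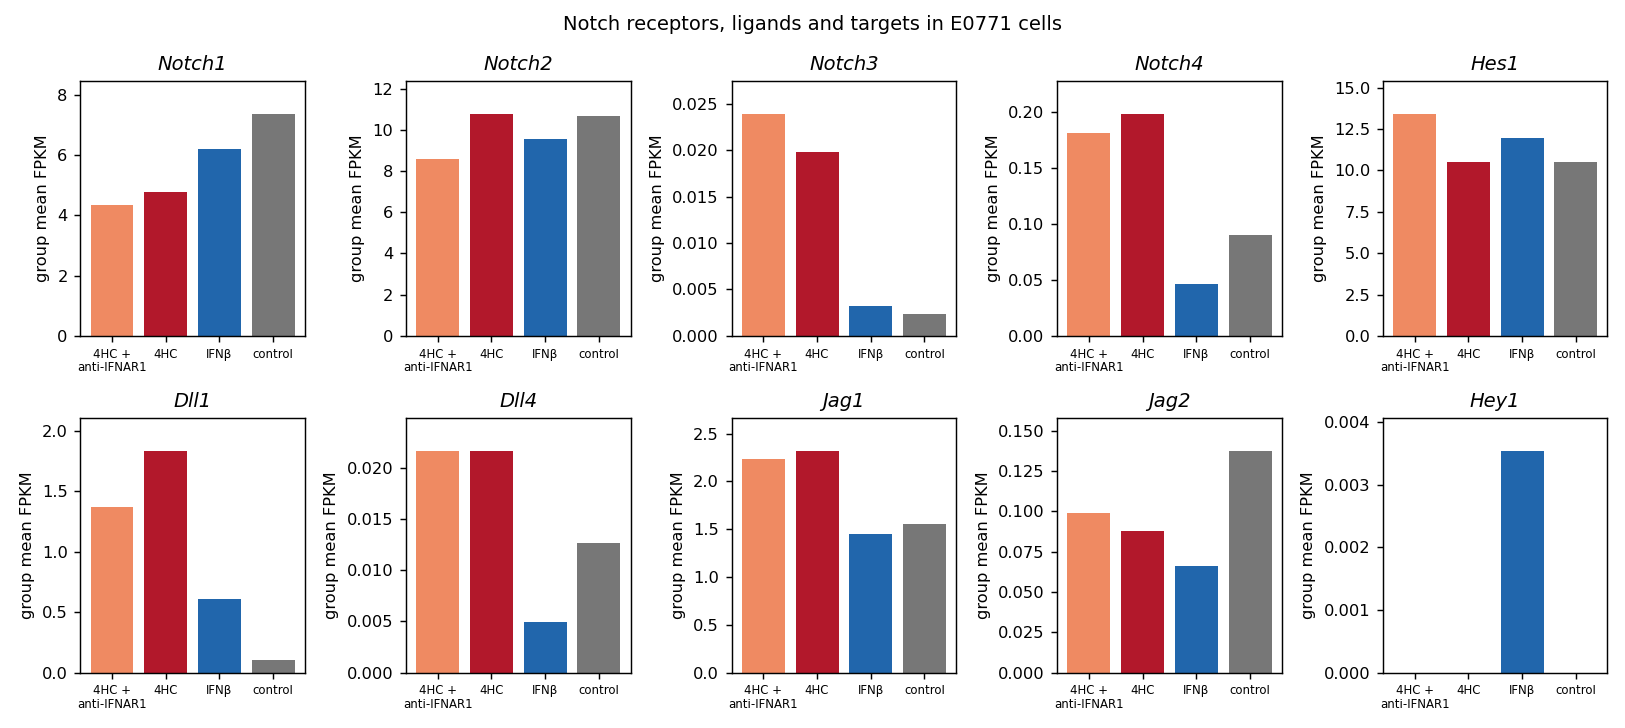
Group mean FPKM (y axis, linear from 0, scaled separately for each gene) of the 10 members in cells given 4HC with anti-IFNAR1 antibody, 4HC alone or IFNβ, and in control cells. Each bar is the authors' mean of 3 libraries, with no error bar because values per library were not used; Dll1 is at 1.83 FPKM with 4HC and 0.106 FPKM in control cells, while Hey1 is listed at 0 in all groups but IFNβ.

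Cells exposed to 4HC carried far more Dll1 transcript than control cells. Dll1, a Delta-like ligand of Notch receptors (mm9 chromosome 17, 15504317 to 15512787), had group means of 1.37 FPKM with 4HC and antibody, 1.83 FPKM with 4HC, 0.606 FPKM after IFNβ and 0.106 FPKM in control cells. All treated groups thus lay above the control group, in the order 4HC, 4HC with antibody, IFNβ. The ratio of 4HC to control means was 17.2, and on the log2 scale with 0.1 FPKM added to each mean, used for all log2 values below, it was 3.23. Since Dll1 was low in control cells, this log2 value depends on the added constant: it was 3.99 with 0.01 FPKM added and 1.36 with 1 FPKM added.

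A gene was counted as past the fold when its log2 value exceeded a 2-fold change and its mean was above 0.5 FPKM in either group, the fold and the lower FPKM limit of the study without its P value. For 4HC against control, 11016 genes met the FPKM limit, of which 5.07% were more than 2-fold higher and 0.445% more than 2-fold lower. Of the 10 members, 5 met the limit, and 1 of them, Dll1, was past the fold. Of all genes compared, 73 had a higher log2 value than Dll1. Among the 1991 genes with a mean of 0.5 to 2 FPKM over the 4 groups, 10.2% were more than 2-fold higher with 4HC. Their median log2 value was 0.18. Dll1 falls in that class only through its means in the treated groups. Among the 2488 genes with a mean of 0.05 to 0.5 FPKM, a range that holds its control mean, 18.3% were more than 2-fold higher. The median log2 value there was 0.43.

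Dll1 remained high when IFNAR1 was blocked. With 4HC and antibody its mean was 12.9 times the control mean (log2 value 2.83), and 29 genes had a higher value in that comparison, in which 4.46% of 10995 genes were more than 2-fold higher and 0.446% more than 2-fold lower. Set against 4HC alone, the mean with 4HC and antibody was 0.747 times as high (log2 value -0.40), a difference smaller than 2-fold. Dll1 nevertheless stood near the lower end of this comparison, at percentile 3.94 of the log2 values, with 10645 genes higher. In this comparison 1.52% of 11083 genes were more than 2-fold lower with the antibody and 0.46% more than 2-fold higher, and none of the 5 members above the FPKM limit was past the fold in either direction. At 1.5-fold, 1.7% of genes were higher and 2.49% lower with the antibody, and again 0 members were. Taken as the difference between 4HC with antibody and control over the difference between 4HC and control, 73.1% of the excess of Dll1 remained with the antibody.

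A short exposure to IFNβ was also accompanied by more Dll1. The IFNβ mean was 5.70 times the control mean (log2 value 1.77), and 146 genes had a higher value. More than 2-fold higher with IFNβ were 2.19% of 10677 genes, and 0.318% were more than 2-fold lower. Dll1 was the only one of the 5 members above the FPKM limit that was past the fold. Its IFNβ mean of 0.606 FPKM lies just above that limit, and the call is lost when a mean above 1 FPKM is required. The 4HC and IFNβ means stand side by side as 1.83 and 0.606 FPKM, and the agent and the time after the wash cannot be told apart in that pair. Cells given IFNβ were also collected sooner after the start of treatment than the 72-hour point of the control cells, and the methods of the study give a denser seeding for IFNβ than for 4HC, so that in IFNβ against control, too, the agent cannot be told apart from culture time and density. The comparisons with control share the same control libraries.

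**Figure D2:**
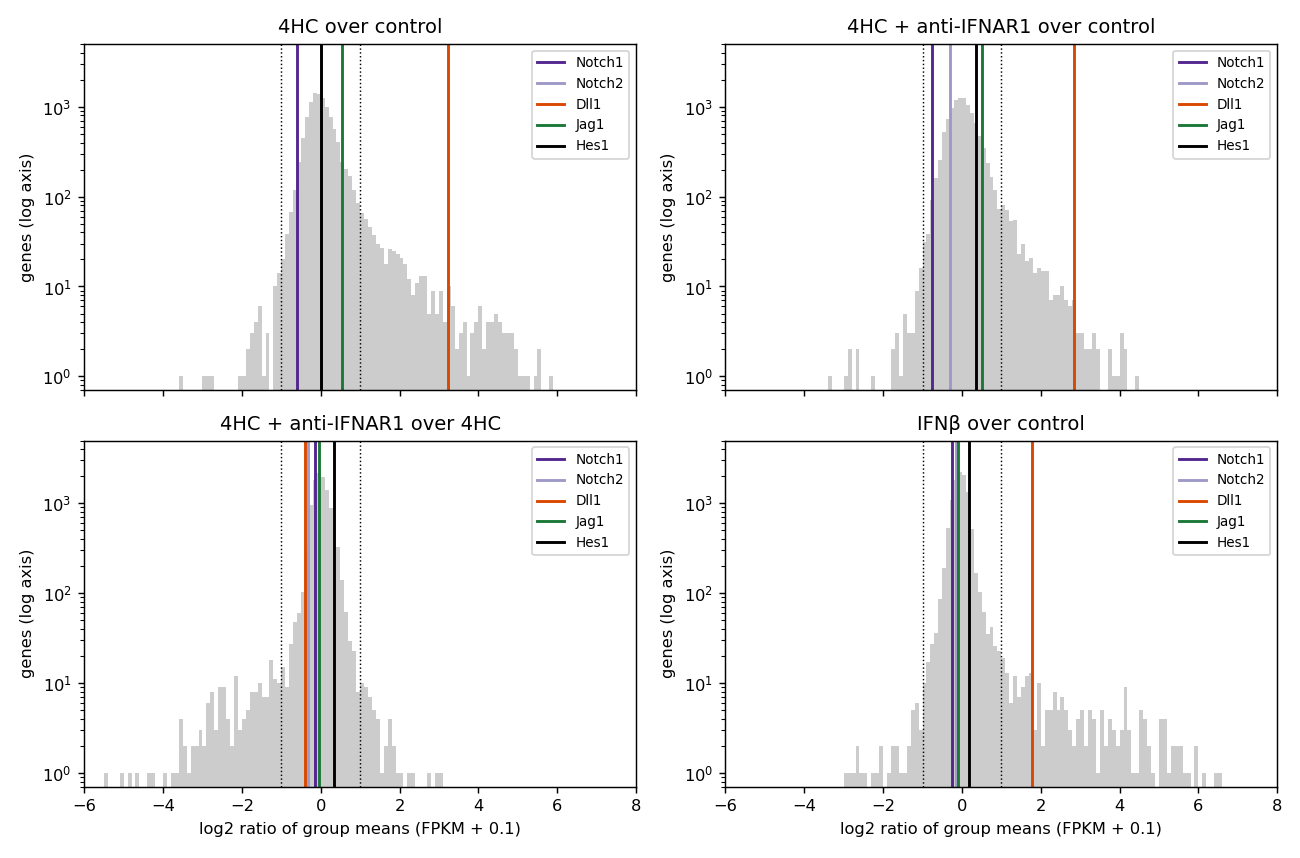
Distribution of log2 ratios of group means (x axis, 0.1 FPKM added) over all genes above 0.5 FPKM in either group, with the number of genes on a log axis (y axis), for the 4 comparisons named above each panel. Colored lines mark the 5 members above the limit and dotted lines a 2-fold change; Dll1 lies at 3.23, 2.83 and 1.77 against control, no other member lies beyond a dotted line, and for 4HC over control the line of Notch2 is hidden behind that of Hes1.

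Among the genes compared, none lay close to Dll1 in both the direction and the size of its changes over the 4 group means. Genes were compared by the distance between log2 group means without an added constant, each centered on its own mean over the groups. The floor was 0.1 FPKM in all groups, set after the values of Dll1 were seen and just below its control mean. Genes under 0.1 FPKM in any group, among them those rising from a lower control level, were not compared. Of 11681 genes above the floor, 0 lay within 0.25 of Dll1. This distance grows with the size of a gene's changes, so that count cannot be set against those given below for members that changed less. The nearest genes were Cxcl10 (distance 0.67), Ccl7 (0.71) and Casp4 (0.71). Cxcl10 averaged 18.5 FPKM with 4HC and antibody, 28.6 FPKM with 4HC, 11.2 FPKM after IFNβ and 1.04 FPKM in control cells. Ccl7 averaged 35.3, 36.6, 7.95 and 2.26 FPKM in the same order of groups.

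Jag1, a Jagged ligand and the most abundant of the 4 ligands (mm9 chromosome 2, 136907186 to 136942256), was moderately higher with 4HC. Its means were 2.23 FPKM with 4HC and antibody, 2.32 FPKM with 4HC, 1.45 FPKM after IFNβ and 1.55 FPKM in control cells. The groups given 4HC lay together above the IFNβ and control groups. The log2 value was 0.55 for 4HC against control, just short of a 1.5-fold change, 0.50 with antibody and -0.09 for IFNβ, so Jag1 was not past the fold in any comparison. By the same quotient, 88.6% of its excess remained with the antibody. This pattern was common, with 585 of 9482 genes above 1 FPKM in all groups lying within a distance of 0.25 of Jag1, Rmnd1, Gm5512 and Ass1 nearest.

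The remaining ligands were barely detected. Jag2 averaged 0.0992 FPKM with 4HC and antibody, 0.0876 FPKM with 4HC, 0.0661 FPKM after IFNβ and 0.137 FPKM in control cells, so that it was highest in control cells. Dll4, a ligand best known from sprouting endothelium, averaged 0.0217, 0.0216, 0.00494 and 0.0126 FPKM in the same order. Neither met the FPKM limit, and no fold change is drawn from them. The row of Dll4 overlaps that of Gm14207 in the table's mm9 coordinates, and Gm14207 was at 0.00916 FPKM with 4HC and antibody and listed at 0 elsewhere.

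The makeup of the summed ligand transcripts differed between groups. Summed over the 4 ligands, the means came to 3.72 FPKM with 4HC and antibody, 4.26 FPKM with 4HC, 2.12 FPKM after IFNβ and 1.81 FPKM in control cells. Dll1 made up 36.8%, 43.0%, 28.5% and 5.88% of this sum in the same order. Jag1 made up 60.0%, 54.4%, 68.1% and 85.8%. Dll1 thus came to 0.79 times the level of Jag1 with 4HC, against 0.068 times in control cells, on a scale per kilobase of transcript.

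Notch2 was the most abundant receptor in every group and stayed within 1.5-fold in all comparisons. Notch2 (mm9 chromosome 3, 97817460 to 97954290) averaged 8.59 FPKM with 4HC and antibody, 10.8 FPKM with 4HC, 9.57 FPKM after IFNβ and 10.7 FPKM in control cells. The 4HC and control means were nearly equal (log2 value 0.01), and the mean with antibody was the lowest of the 4. Its log2 value was -0.32 for 4HC with antibody against 4HC and -0.31 against control. The value of -0.32 lies near the lower end of its comparison, at percentile 5.89, with 10429 genes higher. Of 9482 genes above 1 FPKM in all groups, 1791 lay within a distance of 0.25 of Notch2, and Med15, Brpf3 and Prdm15 were nearest.

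Notch1, the other receptor with a clear level, was lower in each treated group than in control cells. Notch1 (mm9 chromosome 2, 26313421 to 26359342) averaged 4.34 FPKM with 4HC and antibody, 4.79 FPKM with 4HC, 6.21 FPKM after IFNβ and 7.36 FPKM in control cells. The 4HC groups lay lowest, IFNβ between them and control. The 4HC mean was 0.651 times the control mean (log2 value -0.61) and the mean with antibody 0.590 times (log2 value -0.75), both past a 1.5-fold and short of a 2-fold change. At 1.5-fold, 2.92% of genes were lower with 4HC and 3.55% with 4HC and antibody, and Notch1 was the 1 member lower in each. For IFNβ the log2 value was -0.24. Mir6996, a microRNA gene whose mm9 coordinates lie within those of Notch1, was listed at 0 with 4HC, alone or with antibody, and at 0.128 FPKM after IFNβ and 0.439 FPKM in control cells.

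Notch3 and Notch4 contributed almost nothing to the receptor transcripts. Notch4 averaged 0.181 FPKM with 4HC and antibody, 0.198 FPKM with 4HC, 0.0461 FPKM after IFNβ and 0.0902 FPKM in control cells. Notch3 averaged 0.0239, 0.0198, 0.00327 and 0.00232 FPKM in that order. Both were higher in the groups given 4HC. At the level of Notch4, so were most genes: of 2488 genes with a mean of 0.05 to 0.5 FPKM over the groups, 78.9% had a log2 value above 0 for 4HC against control, with a median of 0.43. The log2 value of Notch4 was 0.65, within the central 80% of that class (-0.24 to 1.33). Notch3, with a mean of 0.0123 FPKM, lies below that class. At 4HC, 6339 genes were listed at 0 FPKM, against 8327 in control cells, and the part of this general shift in the Notch3 and Notch4 values was not tested.

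Among receptors, Notch1 made up 33.0% of the summed FPKM with 4HC and antibody, 30.4% with 4HC, 39.2% with IFNβ and 40.6% in control cells. Notch2 made up 65.4%, 68.2%, 60.5% and 58.9% in the same order. The sum over the 4 receptors was 13.1, 15.8, 15.8 and 18.1 FPKM. The ratio of Notch1 to Notch2 was 0.445 with 4HC and 0.689 in control cells.

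**Figure D3:**
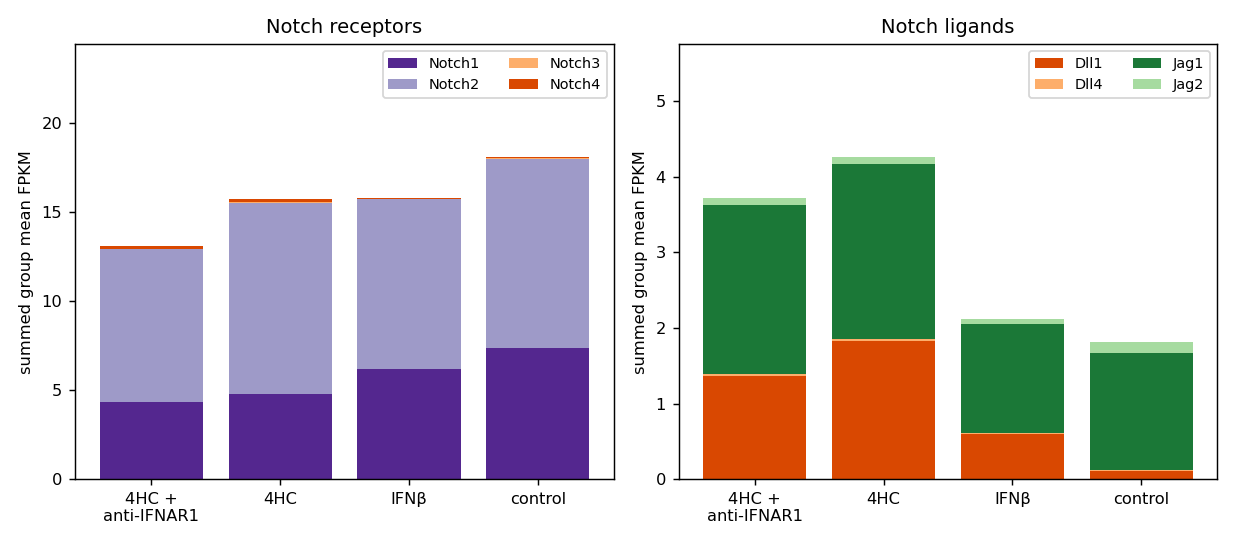
Summed group mean FPKM (y axis, linear from 0) of the 4 Notch receptors (left) and the 4 ligands (right) in cells given 4HC with anti-IFNAR1 antibody, 4HC alone or IFNβ, and in control cells. Segments are the authors' group means of single genes, without error bars; Dll1 is 43.0% of the ligand sum with 4HC and 5.88% in control cells, while Notch2 is the largest receptor segment in all groups.

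Hes1, a transcriptional repressor and the best known direct target of Notch, did not follow Dll1. Hes1 (mm9 chromosome 16, 30065442 to 30067882) averaged 13.4 FPKM with 4HC and antibody, 10.5 FPKM with 4HC, 11.99 FPKM after IFNβ and 10.5 FPKM in control cells. The 4HC and control means were equal to 3 digits, and the group with antibody was the highest. Its log2 value was 0.35 for 4HC with antibody, both against 4HC and against control, and 0.19 for IFNβ. Of 9482 genes above 1 FPKM in all groups, 1453 lay within a distance of 0.25 of Hes1, Psmb7, Sar1b and Bloc1s2 nearest. Hey1, a repressor of the related HEY family, was listed at 0 with 4HC and antibody, with 4HC and in control cells, and at 0.00354 FPKM after IFNβ.

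The other components of the pathway were examined with a list of 58 genes, all of them found in the table and 44 of them above 0.5 FPKM in at least 1 group. Of the 44 compared between 4HC and control, 2 (4.55%) were more than 2-fold higher, Myc and Cdkn1a, and 1 (2.27%) was more than 2-fold lower, Nrarp. At 1.5-fold 6 were higher (13.6%) and 2 lower (4.55%), beside 10.7% and 2.92% of all genes. The median log2 value was 0.06 over the list and -0.01 over all genes compared. With 4HC and antibody against control, 6 of 43 genes were more than 1.5-fold higher (14.0%, beside 10.3% of all genes) and 2 lower (4.65%, beside 3.55%). With IFNβ, 2 of 42 were more than 1.5-fold higher (4.76%, beside 3.48% of all genes) and 1 lower (2.38%, beside 1.24%).

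Among genes that process the receptors, the sheddase and γ-secretase genes above the FPKM limit stayed within 1.5-fold in all 4 comparisons, while the Fringe gene Lfng was lower with 4HC. The sheddase genes Adam10 and Adam17, which encode ADAM proteases, averaged 13.6 and 12.2 FPKM with 4HC, against 13.4 and 11.5 FPKM in control cells. The γ-secretase subunits Psenen and Aph1a, those with the highest mean over the 4 groups, averaged 22.8 and 15.0 FPKM with 4HC, against 22.8 and 17.9 FPKM in control cells. Psenen was at 31.3 FPKM with 4HC and antibody. Of the maturation genes, Poglut1, which adds glucose to the EGF repeats of Notch, averaged 13.5 FPKM with 4HC and 13.4 FPKM in control cells, and the convertase gene Furin averaged 10.9 and 12.6 FPKM. Lfng, a Fringe glycosyltransferase that alters which ligands a receptor answers to, was lower with 4HC, at 1.68 FPKM against 3.08 FPKM in control cells (log2 value -0.84), and its other means were 2.22 FPKM where antibody was added and 3.49 FPKM after IFNβ. Mfng, another Fringe gene, averaged 0.590 FPKM with 4HC and 0.363 FPKM in control cells (log2 value 0.57).

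On the ligand side, 4 genes for E3 ubiquitin ligases that drive ligand endocytosis were listed, and 3 met the FPKM limit. Of these 3, Mib2 and Neurl1a were more than 1.5-fold higher with 4HC, beside 10.7% of all genes. So few genes cannot be set against that share. Mib2 averaged 4.19 FPKM with 4HC and antibody, 4.89 FPKM with 4HC, 2.44 FPKM after IFNβ and 2.78 FPKM in control cells, with a log2 value of 0.79 for 4HC. Neurl1a averaged 1.84, 1.85, 0.638 and 0.991 FPKM in that order, with a log2 value of 0.84 for 4HC. Mib1, the most abundant of them, averaged 8.69 FPKM with 4HC and 9.20 FPKM in control cells (log2 value -0.08), and Neurl1b stayed below 0.03 FPKM in all groups. The other ligand-like genes, Dll3 and Dlk2, stayed below 0.07 FPKM in all groups, and Dlk1 was listed at 0 throughout.

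In the nucleus, Rbpj, the DNA-binding partner of the Notch intracellular domain, averaged 10.7 FPKM with 4HC and antibody, 12.2 FPKM with 4HC, 7.46 FPKM after IFNβ and 7.97 FPKM in control cells. It was more than 1.5-fold higher with 4HC (log2 value 0.60). Cir1, a corepressor gene, was past 1.5-fold for 4HC with antibody over control, at 6.44 FPKM against 3.72 FPKM in control cells. The most abundant genes of this class, Snw1 and Hdac1, averaged 37.1 and 31.5 FPKM with 4HC, against 37.9 and 39.2 FPKM in control cells. Of the trafficking genes, the Deltex gene Dtx3 averaged 12.6 FPKM with 4HC and 9.90 FPKM in control cells, and the ubiquitin ligase gene Itch 7.93 and 8.27 FPKM.

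The target genes differed in direction. Nrarp, a direct target whose product feeds back to dampen Notch signaling, was lower in every treated group: 2.05 FPKM with 4HC and antibody, 1.51 FPKM with 4HC and 2.02 FPKM after IFNβ, against 3.30 FPKM in control cells. Its log2 value was -1.08 for 4HC, -0.66 with antibody and -0.68 for IFNβ. Myc, a growth regulator with many inputs besides Notch, averaged 121, 145, 80.8 and 64.2 FPKM in the same order of groups. Cdkn1a, an inhibitor of cyclin-dependent kinases best known as a p53 target, averaged 29.2, 38.2, 22.2 and 11.5 FPKM. Id1 and Id3, inhibitors of basic helix-loop-helix factors and known targets of BMP signaling, were highest with 4HC and antibody, at 82.8 and 68.0 FPKM, with 53.5 and 48.6 FPKM with 4HC, 49.1 and 45.4 FPKM after IFNβ, and 35.6 and 28.1 FPKM in control cells. Id3 was more than 1.5-fold higher than control after IFNβ as well (log2 value 0.69). Of the HES and HEY genes outside the members, Hes7 was the 1 gene above 0.5 FPKM, with 7.30 FPKM with 4HC and 5.15 FPKM in control cells, and Hes2 averaged 0.128 and 0.0397 FPKM.

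**Figure D4:**
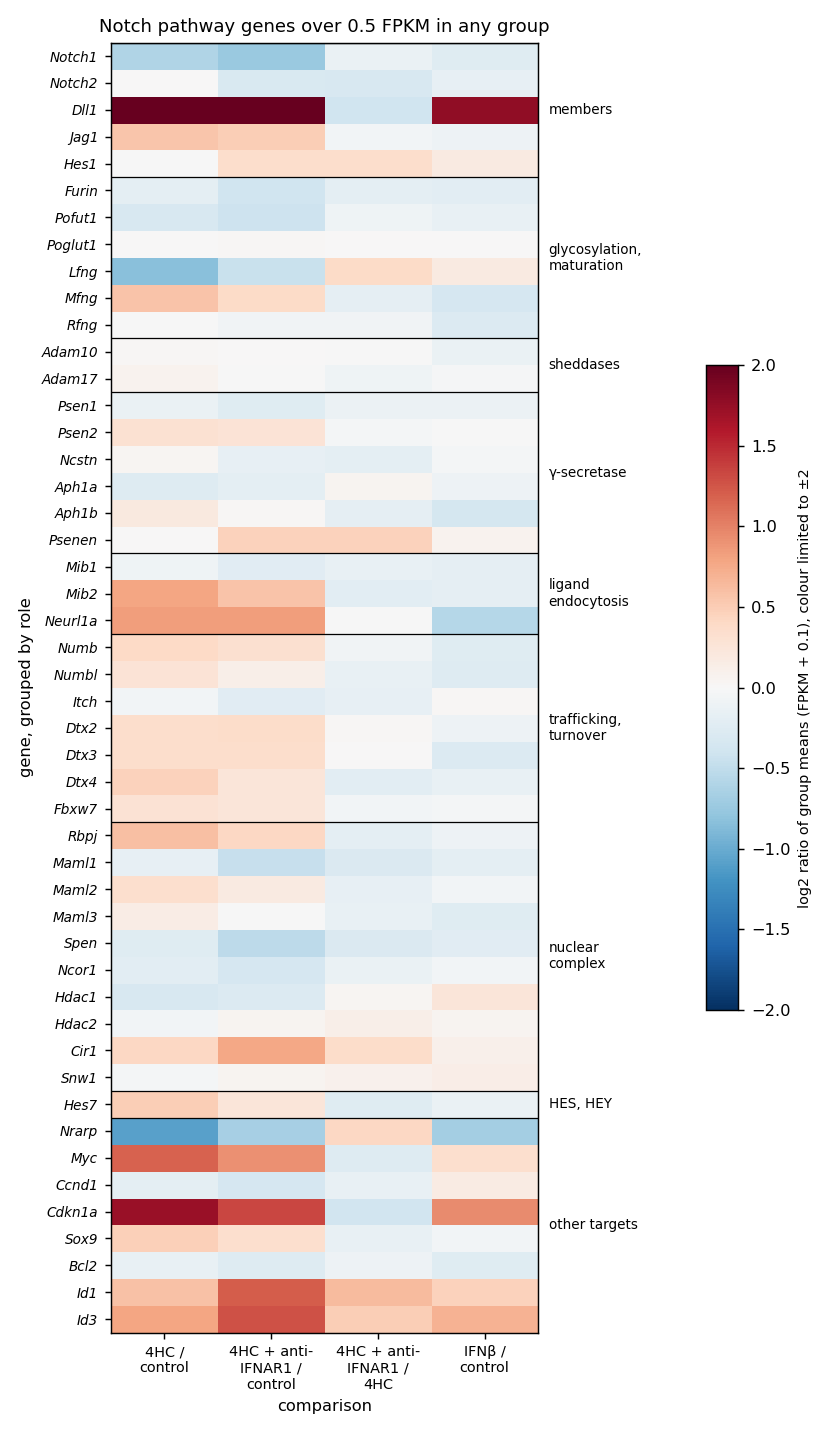
Log2 ratio of group means (color, 0.1 FPKM added, limited to 2 in each direction) for members and the other reported Notch pathway genes above 0.5 FPKM in any group (rows, by role) in the 4 comparisons (columns). Red is higher and blue lower in the first-named group; Dll1, Cdkn1a and Myc are the reddest cells for 4HC over control, and Nrarp, at -1.08, is the bluest.

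Markers of the cells in culture were checked beside these levels. Krt8, a keratin of simple epithelia, averaged 46.5 FPKM with 4HC and 70.2 FPKM in control cells, but 5 of 6 epithelial markers, Krt18 and Epcam among them, stayed below 0.5 FPKM in all groups. Krt8 was thus the only epithelial marker of this list at a clear level in a line of mammary epithelial tumor origin. Of 4 mesenchymal markers, Vim was at 752 and 785 FPKM and Zeb1 at 7.42 and 5.36 FPKM with 4HC and in control cells. The other 2, Fn1 and Cdh2, stayed below 0.5 FPKM in all groups. Of 8 endothelial markers, genes of a cell type that uses Notch4 and Dll4, 7 stayed below 0.5 FPKM in all groups, and the sum over the 8 was 1.38 FPKM with 4HC and antibody, 1.34 FPKM with 4HC, 0.874 FPKM after IFNβ and 0.850 FPKM in control cells. The sum follows Vwf, at 0.415 FPKM with 4HC and 0.0596 FPKM in control cells, and Esam, at 0.299 and 0.106 FPKM, whereas Pecam1, the 1 marker above 0.5 FPKM, was at 0.506 and 0.656 FPKM. All 6 leukocyte markers were below 0.5 FPKM in every group, with sums of 0.241, 0.195, 0.0213 and 0.0106 FPKM in that order. This sum follows 1 gene, Csf1r, at 0.201, 0.145, 0.0127 and 0.00435 FPKM, while Cd3e was listed at 0 throughout. Fibroblast and pericyte markers, genes of cells that use Notch3, summed to 53.8, 56.5, 74.4 and 76.3 FPKM. Acta2, at 18.8, 16.9, 42.8 and 36.9 FPKM, was likewise lower in both groups given 4HC. Col1a1, at 18.7, 21.9, 20.4 and 26.7 FPKM, did not follow the sum after IFNβ. Of the 6 fibroblast and pericyte markers, Pdgfra, Pdgfrb and Rgs5 were higher with 4HC than in control cells (10.9 against 7.05, 6.57 against 5.27 and 0.0714 against 0.0223 FPKM), and Acta2, Col1a1 and Cspg4 were lower. The cultures were of a single line, so these levels are not read as counts of cells of these types. In bulk RNA, fewer cells of a type and less RNA per cell cannot be told apart. The part of other cell types in the Notch3, Notch4 and Dll4 values was not tested.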

How the data were processed

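The authors sequenced polyA RNA in stranded libraries. The submitters' notes name TopHat2, featureCounts, edgeR and mouse build mm9, and their versions were not given in the sources used here. The deposited table holds the authors' mean FPKM of each group of 3 libraries. Its ratio, fold change and P columns are the authors' own comparisons and were not used. Whether reads were counted by strand, and the depth behind a group mean, were not given in the table, so no interval or detection floor was computed.

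Ratios of group means were computed here on the log2 scale after adding 0.1 FPKM, which understates changes of low genes, and counted past 2-fold where either mean exceeded 0.5 FPKM. No test was possible from group means. Alternatives were other added constants, FPKM limits, 1.5-fold and centering on the median gene. All members, the 2 most abundant genes of each pathway role, genes past 1.5-fold and the 3 genes nearest to Jag1, Notch2 and Hes1 were named. Those for Dll1 were added after its values were seen. 1 listed pathway gene is counted but not reported here. Members and lists were chosen with earlier results of these data known. Python 3.11.15 was used with pandas 2.3.3 and numpy 2.4.6, and plots were drawn in matplotlib 3.10.9.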

Additional observations from a re-analysis of the deposited data

How the results depend on the processing

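No paired analysis was possible because the table holds group means alone, so the fit with a replicate block and the fits without each replicate were not run. With 1 FPKM added, the number of genes past 2-fold was 269 for 4HC against control (main value 608), 156 for 4HC with antibody against control (539), 107 for 4HC with antibody against 4HC (220) and 165 for IFNβ against control (268), and no member was past the fold for IFNβ (0). With no FPKM limit the first 3 counts were 1016, 983 and 373, and the IFNβ count was 401, of which 76.6% were higher, against 87.3% in the main count. With 1 FPKM added, 2.80% of the genes past the fold for 4HC with antibody against 4HC were higher, against 23.2% in the main count. At 1.5-fold the 4 counts were 1496, 1519, 464 and 504, and 78.5%, 74.3%, 40.5% and 73.8% were higher, against 91.9%, 90.9%, 23.2% and 87.3% at 2-fold. Members past 1.5-fold were 2 for 4HC and 2 for 4HC with antibody, each against control (Dll1 higher, Notch1 lower). A limit of 1 FPKM left 0 members past the fold for IFNβ. Dll1 stayed past 2-fold with 4HC, alone or with antibody, under all of these settings. For IFNβ its log2 value was 2.40 with 0.01 FPKM added and 0.54 with 1 FPKM added. Of 120 single-member ratios under another added constant or centering, 8 moved by over 1.5 times, all of Dll1 or Notch3. The precision of every value is limited by the lack of values per culture, most of all below 0.5 FPKM.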
